A study of Mus musculus with 10 samples.

Results

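The genes described here are 37 genes of S phase and DNA replication, taken by gene symbol from the 30295 gene rows measured in sorted stem cells of the mouse intestine. Each of the 37 symbols had a row, and all 37 were among the 15839 genes that passed a filter on low counts. RNA was sequenced from 10 libraries of 10 C57Bl/6 mice, handled in 5 isolations that each held 1 calorie restricted (CR) and 1 ad libitum fed (AL) animal of the same reporter line. Hopx CR (n = 2) and Hopx AL (n = 2) are cells named as reserve stem cells by their sort. They were sorted in isolations 4 and 5 from mice in which a CreER at the Hopx locus switches on a tdTomato reporter. Lgr5 CR (n = 3) and Lgr5 AL (n = 3) are cells named as active stem cells by their sort, made in isolations 1 to 3 from mice with EGFP and CreER at the Lgr5 locus. All animals therefore carried an inducible Cre, and tdTomato, once switched on by Cre, stays on in the descendants of a marked cell. No label states the animals' age or sex or how long and how strictly intake was limited.

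DNA replication starts in G1, when the origin recognition complex, Cdc6 and Cdt1 load the ring-shaped Mcm2-7 helicase onto DNA, a step called licensing. At the start of S phase, kinases, among them those of cyclin E, promote the loading of Cdc45 and the GINS complex. These turn the ring into an active helicase, and polymerases, the sliding clamp and its loader then copy the strands. Most of these genes are transcribed in a wave at the G1/S boundary, in which the E2F transcription factors act. Active crypt stem cells cycle steadily while reserve stem cells are known for slow division.

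Depth ran from 20.3 M to 87.2 M estimated counts per library, and log2 CPM (counts scaled to the size of the library) correlated at 0.929 to 0.958 between libraries of a group. The sort labels were set against their own genes in TPM, a length-corrected unit that sums to about the same total in every library. Lgr5 mRNA was 14.1 to 31.1 TPM in Hopx CR, 9.88 to 16.5 TPM in Hopx AL, 35.3 to 69.0 TPM in Lgr5 CR and 18.4 to 93.9 TPM in Lgr5 AL. The ranges of Hopx CR and Lgr5 AL thus overlapped. Hopx mRNA was lower in every Hopx library (76.0 to 111 TPM) than in every Lgr5 library (138 to 238 TPM), so the name of the Hopx cells rests on the sort. The Y-linked gene Eif2s3y was at 0.125 TPM in Hopx CR replicate 1, 0.0766 TPM in Lgr5 CR replicate 3 and 0.045 TPM in Lgr5 AL replicate 3, and at 8.91 to 30.5 TPM in the other 7 libraries. The CR and AL animals of isolation 4 thus differed in it, and its part in the Hopx diet values was not tested.

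RefSeq promoter windows, which run from 250 bases before to 50 bases after a gene's start, were matched to 30 of the 37 genes (build GRCm38.p6). Where a gene had several windows only the first listed was used, so motifs at other start sites were not searched. Windows are shown for Pold1, Cdc6 and Cdt1, the 3 genes with the smallest p-values in Lgr5 CR against AL. Slbp is included as lower in log2 CPM under CR in all 5 isolations. Windows are also shown for Mcm7, whose diet difference had opposite signs in the Lgr5 and Hopx cells. They lie at chr7:44548766-44549065 on the minus strand (Pold1), chr11:98907901-98908200 on the plus strand (Cdc6), chr8:122567765-122568064 on the plus strand (Cdt1), chr5:138171834-138172133 on the minus strand (Mcm7) and chr5:33652525-33652824 on the minus strand (Slbp). Each is written 5′ to 3′ along its gene, and capitals mark the E2F motifs TTCCCGC and TTGGCGC or their reverse complements GCGGGAA and GCGCCAA.
Pold1: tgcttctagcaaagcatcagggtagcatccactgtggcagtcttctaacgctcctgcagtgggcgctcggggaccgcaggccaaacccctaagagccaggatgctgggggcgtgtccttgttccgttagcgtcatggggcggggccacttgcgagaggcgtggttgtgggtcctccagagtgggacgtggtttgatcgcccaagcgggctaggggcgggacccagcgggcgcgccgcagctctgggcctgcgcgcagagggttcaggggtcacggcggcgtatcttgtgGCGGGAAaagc
Cdc6: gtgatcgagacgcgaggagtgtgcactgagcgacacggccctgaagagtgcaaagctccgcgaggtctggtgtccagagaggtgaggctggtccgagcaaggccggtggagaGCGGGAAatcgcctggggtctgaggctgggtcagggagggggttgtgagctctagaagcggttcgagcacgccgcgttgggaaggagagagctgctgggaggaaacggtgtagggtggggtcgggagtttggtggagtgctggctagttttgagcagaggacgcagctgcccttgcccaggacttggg
Cdt1: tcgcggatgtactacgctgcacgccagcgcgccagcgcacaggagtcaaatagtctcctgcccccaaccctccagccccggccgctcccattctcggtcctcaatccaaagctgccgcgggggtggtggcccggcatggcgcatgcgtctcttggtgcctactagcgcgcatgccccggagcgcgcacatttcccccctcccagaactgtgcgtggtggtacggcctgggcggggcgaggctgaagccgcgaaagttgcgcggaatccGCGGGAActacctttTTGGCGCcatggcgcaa
Mcm7: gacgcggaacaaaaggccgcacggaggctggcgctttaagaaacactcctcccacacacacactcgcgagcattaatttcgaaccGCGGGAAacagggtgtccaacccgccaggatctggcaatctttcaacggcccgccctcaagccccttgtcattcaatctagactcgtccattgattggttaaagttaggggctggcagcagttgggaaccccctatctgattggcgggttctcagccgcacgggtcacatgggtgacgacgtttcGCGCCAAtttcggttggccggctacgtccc
Slbp: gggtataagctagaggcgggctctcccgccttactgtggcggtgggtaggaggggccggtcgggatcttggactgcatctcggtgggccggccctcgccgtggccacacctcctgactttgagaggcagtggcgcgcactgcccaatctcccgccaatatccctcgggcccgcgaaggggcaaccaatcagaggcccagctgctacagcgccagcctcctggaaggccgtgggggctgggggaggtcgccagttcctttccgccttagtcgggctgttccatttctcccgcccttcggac

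At least 1 of these E2F motifs, searched on both strands, was in 17 of the 30 windows (56.67%), against 6.934% of 27025 RefSeq promoters of the same length. TTCCCGC was in 15 of the 30 windows (50%), against 4.662% of all promoters. TTGGCGC was in 7 (23.33%), against 2.538%. The CCAAT box was in 19 windows (63.33%) and in 37.92% of all promoters. The reverse complement GCGCCAA followed by T also holds CCAAT, as in Mcm7, so these matches can overlap. Of the windows shown, Pold1 has GCGGGAA at position 40 and Cdt1 at position 19 after the start, Cdc6 at position -138 and Mcm7 at -165, and Slbp has neither motif. The cell cycle homology region, TTTGAA on either strand, a motif of G2 and M phase genes, was in 4 of the 30 windows (13.33%), against 18 of 25 windows of the G2 and M phase genes used below for comparison (72%) and 18.11% of all promoters. Median GC content was 59.17% in the 30 windows and 52.67% in all promoters. These matches describe letters in a window and were not tested as sites.

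Levels between genes were compared as TPM, which allow for transcript length. Mcm6, a subunit of the helicase ring, had the highest mean (121 TPM over 10 libraries), followed by Slbp, the histone mRNA binding protein (103 TPM), the sliding clamp Pcna (87.4 TPM) and Mcm7 (77.7 TPM). The lowest mean was that of the GINS subunit Gins3 (3.33 TPM), below cyclin E2, Ccne2 (3.97 TPM), and the polymerase alpha subunit Pola1 (4.31 TPM). Mcm6 stood at 67.2 and 101 TPM in Hopx CR, 61.5 and 86.8 TPM in Hopx AL, 75.5, 133 and 110 TPM in Lgr5 CR, and 123, 186 and 265 TPM in Lgr5 AL. Gins3 stood at 2.63 and 2.05 TPM in Hopx CR, 2.03 and 2.35 TPM in Hopx AL, 3.25, 3.31 and 3.01 TPM in Lgr5 CR, and 3.21, 4.52 and 6.99 TPM in Lgr5 AL. For both genes the 4 Hopx libraries overlapped each other, and for Gins3 every Hopx library was below every Lgr5 library on this scale.

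The 6 subunits of the Mcm2-7 ring, present in a single copy each in the assembled complex, had unequal mRNA levels. Their means over 10 libraries were 121 TPM for Mcm6, 77.7 for Mcm7, 55.4 for Mcm2, 50.5 for Mcm3, 28.5 for Mcm4 and 6.07 for Mcm5. Mcm6 was the highest and Mcm5 the lowest of the 6 in all 10 libraries, with a TPM ratio of 13.2 to 27.5 between them. Ccne1 exceeded Ccne2 in every library, by a TPM ratio of 1.25 to 4.40. The ratio of Rrm2 to Rrm1, the subunits of ribonucleotide reductase, was 0.646 and 1.12 in Hopx CR, 1.20 and 0.875 in Hopx AL, 0.436, 0.612 and 0.412 in Lgr5 CR, and 0.641, 0.606 and 0.605 in Lgr5 AL. All 6 Lgr5 libraries were therefore below all 4 Hopx libraries in this ratio, Hopx CR replicate 1 by a narrow margin, and the ratio does not depend on the scaling of a library. Transcripts of a pseudogene of the clamp (Pcna-ps2) reached 19.7 TPM, so part of the Pcna signal may be shared with it.

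**Figure D1:**
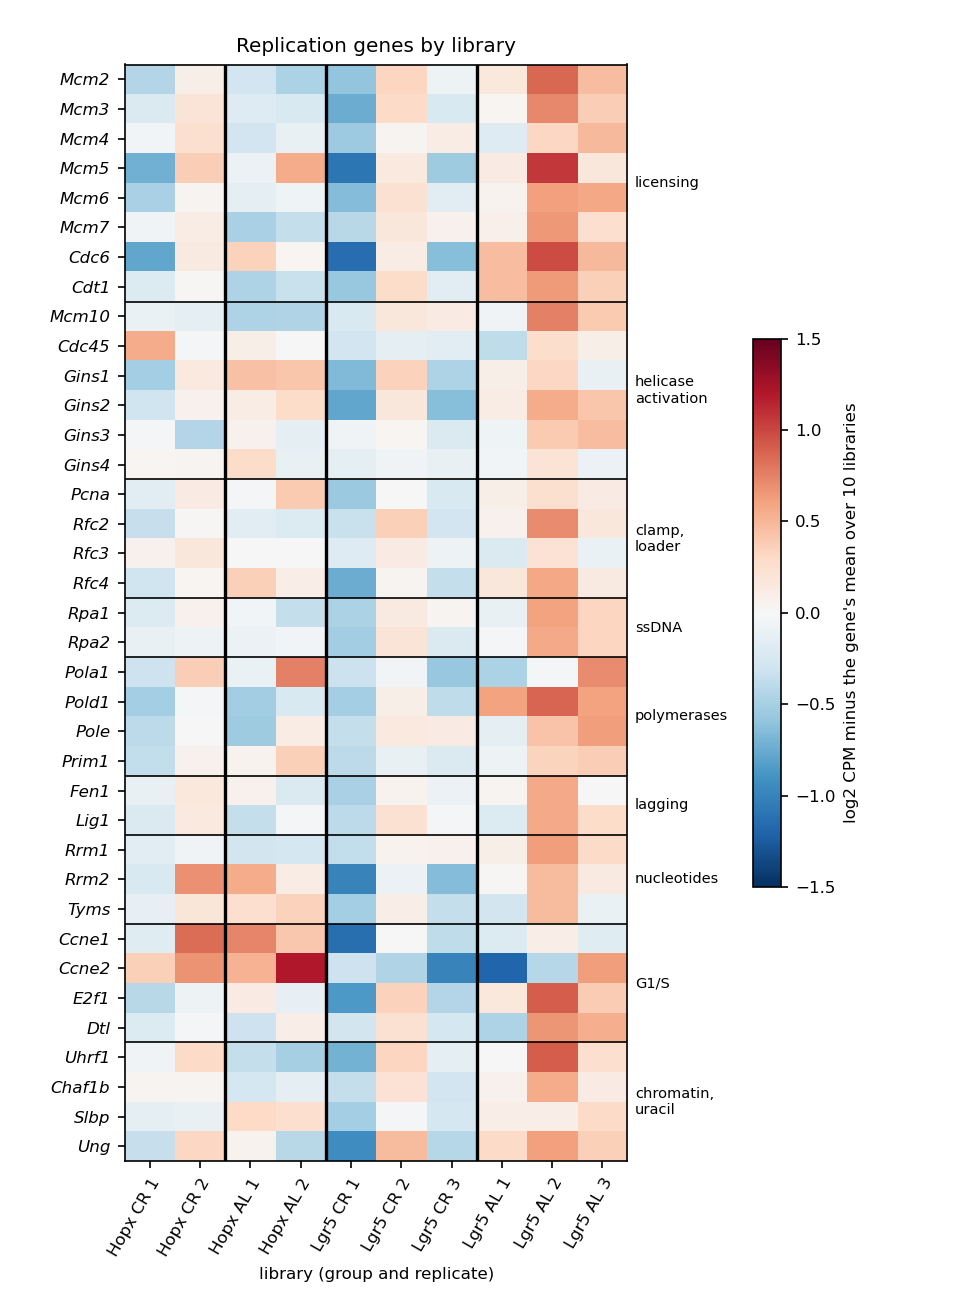
Heat map of the 37 replication genes (rows, grouped by role) in the 10 libraries (columns, by group and replicate); colour is log2 CPM minus the gene's mean over the 10 libraries. Most rows are red in Lgr5 AL replicates 2 and 3 and blue in Lgr5 CR replicates 1 and 3 and Hopx CR replicate 1, while Ccne1 and Ccne2 are red in most Hopx libraries.

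The first comparison asked how calorie restriction relates to replication gene expression in the Lgr5 cells. All 37 genes had a lower fitted level in Lgr5 CR than in Lgr5 AL, while 48.2% of all tested genes did. Their log2 fold changes ran from -1.13 for Cdc6 to -0.03 for the clamp loader subunit Rfc3, with a median of -0.42, against a median of 0.02 over all tested genes. None of the 37 passed an adjusted p of 0.05 in edgeR's quasi-likelihood test with Benjamini-Hochberg adjustment over all tested genes, which called 0.0189% of genes in this comparison. At an unadjusted p under 0.05, 13 of the 37 were lower and 0 higher, against 4.21% and 5.57% of all genes, and DESeq2 called 1 of the 37, Pold1, against 2.45% of the genes to which it gave an adjusted p. In RNA from pools of sorted cells, fewer cells in S phase and less of each mRNA per cell cannot be told apart.

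Among licensing factors, all 8 were lower in Lgr5 CR, with a median of -0.59, and 5 of the 8 had an unadjusted p under 0.05. Cdc6, the ATPase that helps load the ring, was at 9.73, 23.2 and 13.8 CPM in Lgr5 CR, against 29.6, 42.4 and 30.1 CPM in Lgr5 AL. Cdt1, its partner in loading, was at 39.6, 71.1 and 52.6 CPM in Lgr5 CR, against 81.0, 91.7 and 75.5 CPM in Lgr5 AL. For both genes every CR library was below every AL library, and CR replicate 2 was the highest of the CR libraries. The log2 fold change of Cdc6 was -1.13 (SE 0.347, edgeR quasi-likelihood adjusted p = 0.319) and that of Cdt1 was -0.60 (SE 0.207, adjusted p = 0.379). Mcm5 was at 8.14, 19.1 and 12.0 CPM in Lgr5 CR, against 18.8, 36.2 and 19.5 CPM in Lgr5 AL, where CR replicate 2 lies within the AL range. Mcm2 likewise overlapped, at 105, 197 and 150 CPM in Lgr5 CR, against 177, 286 and 217 CPM in Lgr5 AL. Their log2 fold changes were -0.93 (SE 0.413) for Mcm5 and -0.59 (SE 0.263) for Mcm2, both at an adjusted p of 0.509 by edgeR's quasi-likelihood test, and the other 4 ring subunits ran from -0.59 to -0.33.

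The polymerase genes held the smallest p of the 37. Pold1, the catalytic subunit of polymerase delta, which copies the lagging strand, was at 84.9, 128 and 93.1 CPM in Lgr5 CR, against 184, 223 and 184 CPM in Lgr5 AL. The groups were separated by a wide gap, and the log2 fold change was -0.95 (SE 0.207, edgeR quasi-likelihood adjusted p = 0.189). Over 17 alternative settings its log2 fold change ran from -1.17 to -0.85 and its adjusted p from 0.00386 (DESeq2) to 0.525, with only DESeq2 below the threshold. Prim1, the primase that lays the RNA primers, was lower by 0.45 log2 units without overlap between the groups, while Pola1 (-0.45) and Pole (-0.35), of polymerases alpha and epsilon, overlapped. Pcna was at 69.7, 103 and 87.8 CPM in Lgr5 CR, against 110, 122 and 112 CPM in Lgr5 AL, again without overlap (log2 fold change -0.40, SE 0.185, edgeR quasi-likelihood adjusted p = 0.528). Its loader subunit Rfc4 differed by -0.63 without overlap, whereas Rfc3 differed by -0.03. Exons of Rfc4 and Mcm7 overlap Eif4a2 and Cops6 on the opposite strand. Those of Fen1, Gins2, Rfc2, Lig1, Cdc45, Ccne2, Pole and Slbp also overlap genes on the opposite strand, and those of Rpa1 a gene on the same strand. These libraries do not mark strand.

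Among the factors that activate the helicase, all 6 were lower, with a median of -0.33, and the groups of each overlapped. Gins2 differed most (-0.72), and Cdc45 was at 21.0, 23.3 and 22.9 CPM in Lgr5 CR, against 19.7, 30.8 and 27.2 CPM in Lgr5 AL. The log2 fold change of Cdc45 was -0.21 (SE 0.216, edgeR quasi-likelihood adjusted p = 0.799). For nucleotide supply, Rrm2, the S phase subunit of ribonucleotide reductase, was at 30.6, 57.6 and 38.9 CPM in Lgr5 CR, against 61.9, 84.9 and 67.1 CPM in Lgr5 AL. These groups did not overlap (-0.75, SE 0.293, edgeR quasi-likelihood adjusted p = 0.450), nor did those of Rrm1 (-0.43), and thymidylate synthase, Tyms, differed by -0.31 with overlap. The single-stranded DNA binding proteins Rpa1 (-0.38) and Rpa2 (-0.46), the flap nuclease Fen1 (-0.38) and the ligase Lig1 (-0.29) were lower by similar amounts, with overlapping groups.

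The 4 genes grouped as G1/S regulators, E2f1, Ccne1, Ccne2 and Dtl, were lower in fitted level and overlapped between the diets. E2f1, a transcription factor of the G1/S wave, was at 11.1, 25.5 and 14.8 CPM in Lgr5 CR, against 22.5, 37.7 and 26.1 CPM in Lgr5 AL. Ccne1 was at 6.17, 13.6 and 10.4 CPM in Lgr5 CR, against 11.7, 14.6 and 12.0 CPM in Lgr5 AL, and Ccne2 at 6.64, 6.01 and 4.11 CPM in Lgr5 CR, against 3.60, 6.11 and 12.7 CPM in Lgr5 AL. CR replicate 1 was the lowest library for Ccne1 and E2f1 and AL replicate 1 for Ccne2, and the log2 fold changes were -0.75 (SE 0.318) for E2f1, -0.35 (SE 0.338) for Ccne1 and -0.42 (SE 0.431) for Ccne2. The value of Ccne2 rests on AL replicate 3, since it was 0.20 without that library. Slbp was at 99.1, 138 and 117 CPM in Lgr5 CR, against 151, 151 and 172 CPM in Lgr5 AL, without overlap (log2 fold change -0.42, SE 0.154, edgeR quasi-likelihood adjusted p = 0.424). Ung, the uracil DNA glycosylase, was at 3.16, 8.40 and 4.49 CPM in Lgr5 CR, against 7.35, 9.26 and 7.72 CPM in Lgr5 AL, with overlap (-0.60, SE 0.384, edgeR quasi-likelihood adjusted p = 0.645). Uhrf1, which recruits the maintenance DNA methyltransferase to new DNA, differed by -0.56 and the chromatin assembly factor Chaf1b by -0.38.

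**Figure D2:**
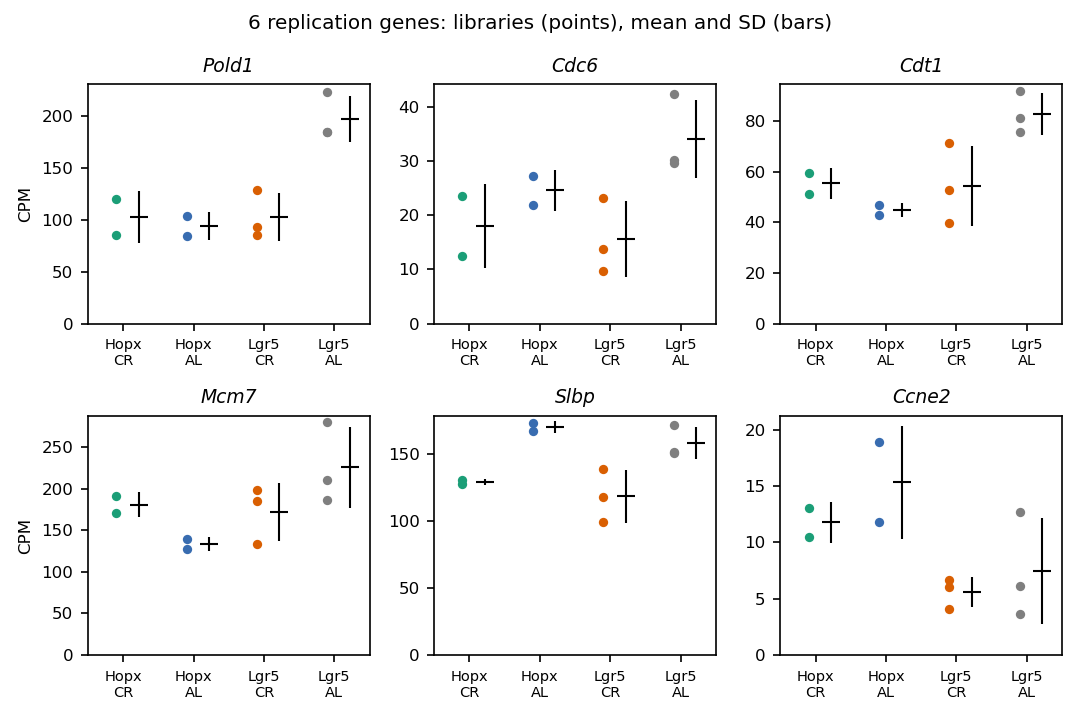
CPM of 6 replication genes in each library (points) with the group mean and SD (black), for Hopx CR and Hopx AL (n = 2 each) and Lgr5 CR and Lgr5 AL (n = 3 each). Pold1, Cdc6 and Cdt1 are lower in every Lgr5 CR library than in every Lgr5 AL library, Mcm7 is higher in both Hopx CR libraries than in both Hopx AL libraries, and Slbp is lower under CR in both populations.

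In all, CPM did not overlap between Lgr5 CR and Lgr5 AL for 9 of the 37 genes, all lower in CR (Cdc6, Cdt1, Pcna, Pold1, Prim1, Rfc4, Rrm1, Rrm2 and Slbp), against 7.49% of all tested genes in that direction, and 0 were higher without overlap, against 7.41%. The count of 13 with an unadjusted p under 0.05 depended on single libraries. It was 3 without Lgr5 CR replicate 1 or without Lgr5 AL replicate 2, 4 without Lgr5 CR replicate 3, 20 without Lgr5 CR replicate 2, 21 without Lgr5 AL replicate 1, and 22 with the isolation as a block. Over these changes 36 or 37 of the 37 stayed below 0. Markers of other cells differed between the same libraries. All 15 tuft cell markers were lower in Lgr5 CR, with a summed level of 46.9 to 72.0 TPM, against 128 to 491 TPM in Lgr5 AL, and all 15 enterocyte markers had a higher fitted level, with sums of 18726 to 26821 TPM in Lgr5 CR and 7768 to 27877 TPM in Lgr5 AL. None of these 30 markers passed the threshold, and their part in the difference of the replication genes was not tested.

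The isolations give the same comparison within pairs of animals. Of the 37 genes, 31, 36 and 36 were lower in the CR animal of isolations 1, 2 and 3, with median differences of -0.49, -0.38 and -0.50 in log2 CPM. Over all tested genes the share lower in these pairs was 50.5%, 49.8% and 46.2%. A total of 30 of the 37 were lower in the CR animal of all 3 Lgr5 isolations, against 17.3% of all genes. The exceptions were Cdc45, Gins1, Gins3, Rfc3, Pola1, Ccne2 and Dtl, a substrate receptor of the ubiquitin ligase that degrades Cdt1. Within Lgr5 pairs the largest differences were those of Ccne2 (-1.62) in isolation 3 and of Cdc6 (-1.60) in isolation 1.

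**Figure D3:**
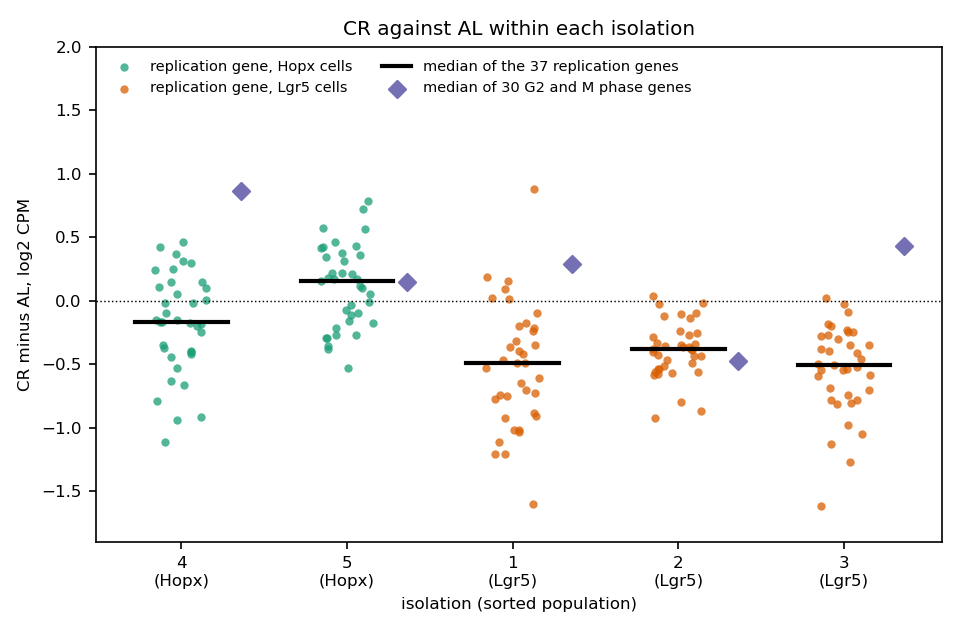
Difference in log2 CPM between the CR and the AL animal of each isolation for the 37 replication genes (points, spread sideways for legibility), with their median (black line) and the median of 30 G2 and M phase genes (diamond). The replication genes lie mostly below 0 in the 3 Lgr5 isolations and on both sides of 0 in the 2 Hopx isolations.

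In the Hopx cells the same question gave no common direction. Between Hopx CR and Hopx AL, 18 of the 37 genes were higher and 19 lower, where 48.6% of all tested genes were higher and 51.3% lower, and the median log2 fold change was -0.02, equal to that of all tested genes at 2 decimals. None passed edgeR's quasi-likelihood test at an adjusted p of 0.05, which called 0.0126% of all genes, and DESeq2 called 0, against 0.922% of its genes. An unadjusted p under 0.05 was reached by 0 lower and 0 higher, against 3.11% and 5.41% of all genes, and by 2 higher with the isolation as a block. Slbp had the smallest p, at 127 and 130 CPM in Hopx CR, against 173 and 167 CPM in Hopx AL (log2 fold change -0.40, SE 0.189, edgeR quasi-likelihood adjusted p = 0.592). Mcm7 lay the other way, at 170 and 191 CPM in Hopx CR, against 127 and 139 CPM in Hopx AL (0.44, SE 0.249, edgeR quasi-likelihood adjusted p = 0.643). So did Uhrf1, at 108 and 136 CPM in Hopx CR, against 86.6 and 78.6 CPM in Hopx AL (0.56, SE 0.355, edgeR quasi-likelihood adjusted p = 0.684). None of these 3 overlapped between diets in CPM, and groups of 2 often do not. In all, 8 of the 37 were higher and 5 lower without overlap, against 21.5% and 21.1% of all genes. On the TPM scale Slbp did overlap, at 77.6 and 82.0 TPM in Hopx CR, against 75.9 and 97.9 TPM in Hopx AL.

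The other genes were mixed in Hopx cells. Cdc6 was at 12.5 and 23.5 CPM in Hopx CR, against 27.2 and 21.9 CPM in Hopx AL, and Rrm2 at 52.2 and 98.4 CPM in Hopx CR, against 90.2 and 66.1 CPM in Hopx AL. Both overlapped, and both were lower in the CR animal of isolation 4 and higher in that of isolation 5. Mcm2 was at 116 and 168 CPM in Hopx CR, against 129 and 113 CPM in Hopx AL (0.23, SE 0.322), and Mcm5 at 10.5 and 22.4 CPM in Hopx CR, against 16.3 and 25.4 CPM in Hopx AL (-0.34, SE 0.501). Cdc45 was at 37.8 and 25.5 CPM in Hopx CR, against 27.4 and 25.6 CPM in Hopx AL (0.26, SE 0.264). The diets overlapped in all 3 genes. Pold1, at 84.8 and 120 CPM in Hopx CR, against 84.4 and 103 CPM in Hopx AL, differed by 0.12 (SE 0.252), and Pcna, at 91.2 and 112 CPM in Hopx CR, against 102 and 135 CPM in Hopx AL, by -0.22 (SE 0.226). Cdt1 was at 51.0 and 59.6 CPM in Hopx CR, against 42.9 and 46.8 CPM in Hopx AL, without overlap (0.30, SE 0.253). Ung was at 4.76 and 7.51 CPM in Hopx CR, against 6.27 and 4.53 CPM in Hopx AL (0.18, SE 0.467). The 4 G1/S regulators were all lower in fitted level, from -0.38 for Ccne2 to -0.02 for Dtl, with overlap in each. E2f1 was among them, at 15.1 and 19.1 CPM in Hopx CR, against 21.8 and 18.4 CPM in Hopx AL (-0.23, SE 0.387).

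Within isolation 4, 24 of the 37 genes were lower in the CR animal (median -0.17), and within isolation 5, 15 were lower (median 0.16), against 50.2% and 50.4% of all genes. The fit without Hopx CR replicate 1 left 15 of the 37 lower (median 0.17) and that without Hopx CR replicate 2 left 27 lower (median -0.14), so the sign of the median rests on which library is kept. Both Hopx isolations had 12 of the 37 lower, against 29.2% of all genes, and 10 higher, against 28.7%. Over all 5 isolations 8 of the 37 were lower in log2 CPM in every CR animal, against 7.68% of all genes: Mcm5, Gins2, Pcna, Rfc4, Rpa2, Prim1, Tyms and Slbp. None of the 37 was higher in log2 CPM in all 5, against 8.86% of all genes. Of the 8, only Mcm5 was also lower in every pair on the TPM scale. In isolation 4, Slbp was at 77.6 TPM in the CR and 75.9 TPM in the AL animal, and Pcna at 64.4 and 51.6 TPM. Of the markers of other cells, 12 of 14 immune cell genes had a lower fitted level in Hopx CR (summed level 20.4 to 84.8 TPM, against 94.5 to 174 TPM in Hopx AL), all 15 enterocyte markers a higher one (14794 to 18982 TPM, against 7446 to 8013 TPM in Hopx AL) and all 14 enteroendocrine markers a lower one (3820 to 6922 TPM, against 8022 to 8281 TPM in Hopx AL), none passing the threshold. Their part in these values was not tested.

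**Figure D4:**
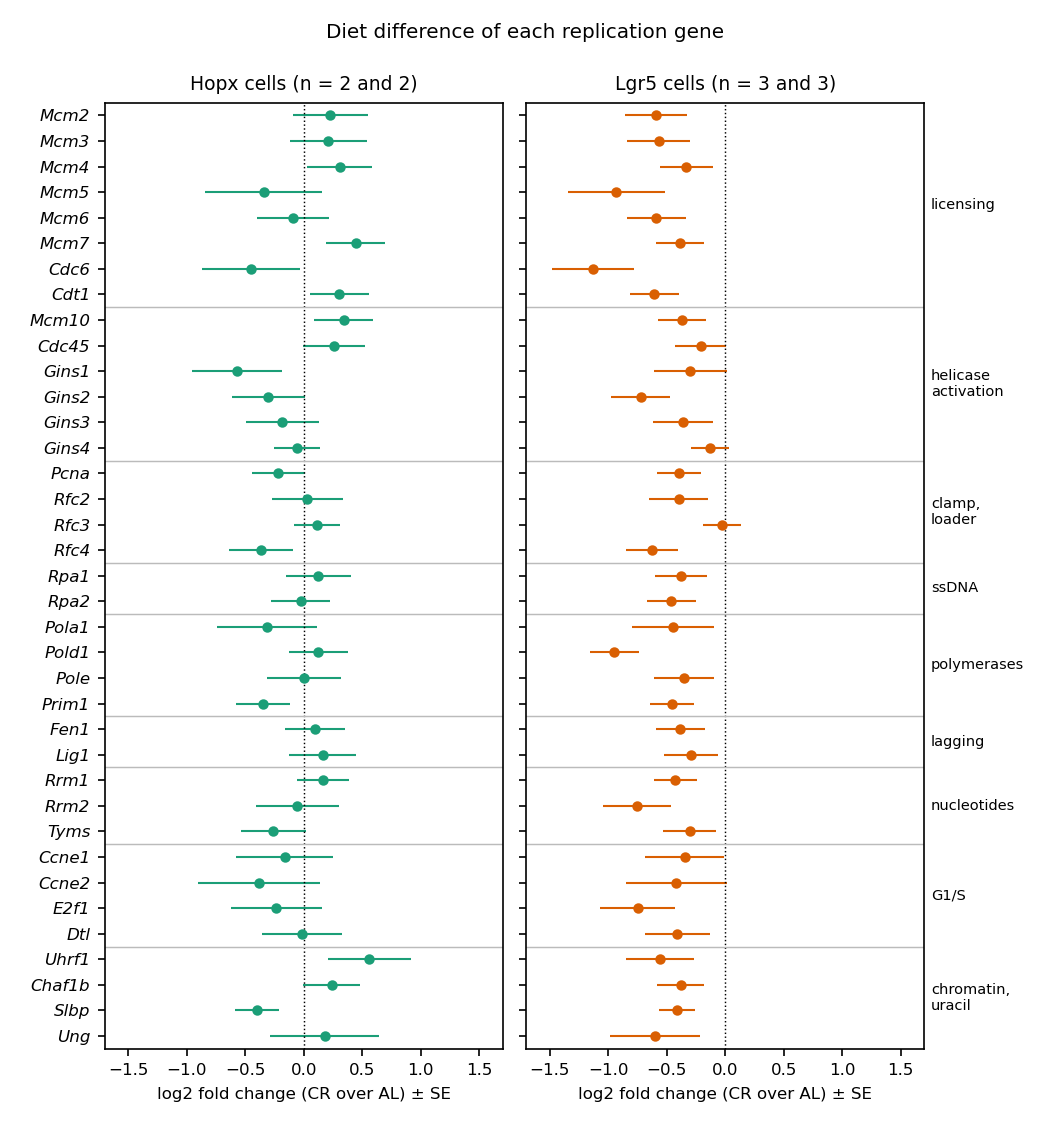
Log2 fold change of CR over AL with its standard error for each of the 37 replication genes, grouped by role, in Hopx cells (left, 2 libraries per diet) and Lgr5 cells (right, 3 per diet), from 1 edgeR fit of all 10 libraries. In Lgr5 cells all 37 points lie below 0, with a median of -0.42, and in Hopx cells 18 lie above 0 and 19 below.

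The difference between the diet effects of the populations was tested directly. It was above 0, that is higher in Hopx than in Lgr5 cells, for 36 of the 37 genes, where 46.5% of all tested genes were above 0 and 53.5% below, and its median was 0.47 log2 units, against -0.04 over all genes. None of the 37 passed edgeR's quasi-likelihood test (0.00631% of all genes were called, and the adjusted p of each of the 37 was 0.9999), and DESeq2 called 0, against 0.221% of its genes. At an unadjusted p under 0.05, 0 were below 0, against 1.89% of all genes, and 4 above 0, against 2.83%: Pold1 (1.07, SE 0.326), Cdt1 (0.91, SE 0.327), Mcm7 (0.83, SE 0.321) and Uhrf1 (1.12, SE 0.458). That count was 11 without Lgr5 CR replicate 2, 9 without Lgr5 AL replicate 1, 2 without Lgr5 AL replicate 2, 1 without Hopx CR replicate 2 or without Hopx AL replicate 1, and 10 with the isolation as a block. Leaving out Lgr5 AL replicate 2 brought the median to 0.28, and leaving out Hopx CR replicate 2 brought it to 0.26. Markers of other cells also differed in their diet effects, with all 15 tuft cell genes above 0 (median 1.91, 7 at an unadjusted p under 0.05), all 12 Paneth and 12 of 14 enteroendocrine genes below 0, and 26 of 30 G2 and M phase genes above 0. None of these passed the adjusted threshold, and their part in the values of the 37 was not tested. By role, the median difference was 0.73 for licensing factors, all 8 above 0, and 0.22 for the clamp and its loader, all 4 above 0.

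A group of 9 genes was lower in the CR animal of all 3 Lgr5 isolations and higher in that of both Hopx isolations: Pold1, Cdt1, Mcm7, Uhrf1, Mcm10, Rrm1, Chaf1b, Mcm4 and Lig1. Of all tested genes 2.82% showed this pattern. Within isolations Pold1 differed by -1.12, -0.79 and -0.98 in Lgr5 cells, and by 0.01 and 0.21 in Hopx cells. Cdt1 differed by -1.03, -0.37 and -0.52 in Lgr5 cells, and by 0.25 and 0.35 in Hopx cells. Slbp, in contrast, was lower in log2 CPM in every pair, by -0.61, -0.12 and -0.55 in Lgr5 cells and by -0.44 and -0.36 in Hopx cells. Its difference of diet effects between populations was 0.02 (SE 0.244).

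The populations were then compared within each diet. Under ad libitum feeding, 26 of the 37 genes had a lower fitted level in Hopx AL than in Lgr5 AL and 11 a higher one, with a median of -0.42, while 47.5% of all tested genes were lower and 52.4% higher and their median was 0.04. These values use the same Lgr5 AL libraries as the diet comparison in Lgr5 cells, and the populations came from different isolations, so population, reporter line and isolation cannot be told apart. None of the 37 passed edgeR's quasi-likelihood test (0.0189% of all genes were called), while DESeq2 called 6 (Mcm2, Mcm7, Cdt1, Mcm10, Pold1 and Rrm1), against 8.11% of its genes. At an unadjusted p under 0.05, 7 were lower, against 8.42% of all genes, which were these 6 and Uhrf1, and 0 higher, against 9.27%. That count was 15 without Lgr5 AL replicate 1, and the median was -0.25 without Lgr5 AL replicate 2.

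Pold1 was at 84.4 and 103 CPM in Hopx AL, against 184, 223 and 184 CPM in Lgr5 AL (log2 fold change -1.07, SE 0.238, edgeR quasi-likelihood adjusted p = 0.0889). Cdt1 was at 42.9 and 46.8 CPM in Hopx AL, against 81.0, 91.7 and 75.5 CPM in Lgr5 AL (-0.88, SE 0.237, edgeR quasi-likelihood adjusted p = 0.119). Mcm10, a replication initiation factor, was at 34.8 and 35.1 CPM in Hopx AL, against 46.3, 80.8 and 62.9 CPM in Lgr5 AL (-0.86, SE 0.236, edgeR quasi-likelihood adjusted p = 0.125). None of the 3 overlapped. All 8 licensing factors had a lower fitted level in Hopx AL (median -0.58), 6 without overlap, among them Mcm2 at 129 and 113 CPM in Hopx AL, against 177, 286 and 217 CPM in Lgr5 AL. Cdc6 (-0.47) did not overlap and Mcm5 (-0.25) did. In all, 15 of the 37 were lower without overlap, against 15.8% of all genes.

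Pcna (0.05), Cdc45 (0.03), Slbp (0.11), Rrm2 (0.13) and Prim1 (0.00) had fitted differences between Hopx AL and Lgr5 AL that were smaller than their standard errors. Ccne1 was at 22.6 and 18.0 CPM in Hopx AL, against 11.7, 14.6 and 12.0 CPM in Lgr5 AL (0.67, SE 0.372), and Gins1 at 12.4 and 12.2 CPM in Hopx AL, against 9.71, 11.3 and 8.49 CPM in Lgr5 AL (0.32, SE 0.347). These were the 2 of 37 that were higher without overlap in CPM, against 18.8% of all genes. Neither was so in TPM. Gins1 was at 9.61 and 12.7 TPM in Hopx AL, below every Lgr5 AL library (13.1, 15.7 and 17.2 TPM), and Ccne1 overlapped. Ccne2 was at 11.8 and 18.9 CPM in Hopx AL, against 3.60, 6.11 and 12.7 CPM in Lgr5 AL, with overlap (1.04, SE 0.472, edgeR quasi-likelihood adjusted p = 0.287). Of other cells' markers, all 14 enteroendocrine and all 12 Paneth cell genes had a higher and all 12 active stem cell genes a lower fitted level in Hopx AL, with none past the threshold. Of 5 reserve stem cell genes, among them Hopx, 4 also had a lower fitted level in Hopx AL (median -0.95), none past the threshold. Summed levels were 8022 to 8281 TPM in Hopx AL, against 1359 to 2083 TPM in Lgr5 AL, for the enteroendocrine genes, and 1105 to 1914 TPM in Hopx AL, against 2763 to 9142 TPM in Lgr5 AL, for the active stem cell genes. Their part in these values was not tested.

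Under calorie restriction the fitted difference between the populations was smaller in size at the median. Its change between the diets is the contrast tested above as the difference of diet effects, in which none of the 37 passed. Between Hopx CR and Lgr5 CR, 28 of the 37 genes had a higher fitted level in Hopx CR and 9 a lower one (50.2% and 49.8% of all tested genes), with a median of 0.14, against 0.00 over all genes. None passed edgeR's quasi-likelihood test (0.0189% of all genes were called), and DESeq2 called 0, against 1.10% of its genes. At an unadjusted p under 0.05, 3 were higher, against 3.31% of all genes, and 0 lower, against 2.99%, and the 3 became 0 without Lgr5 CR replicate 1 or without Lgr5 CR replicate 3 and 1 without Lgr5 AL replicate 2, Hopx CR replicate 2 or Hopx AL replicate 2. Rrm2 was at 52.2 and 98.4 CPM in Hopx CR, against 30.6, 57.6 and 38.9 CPM in Lgr5 CR (0.83, SE 0.321, edgeR quasi-likelihood adjusted p = 0.717). Ccne1 was at 11.9 and 24.3 CPM in Hopx CR, against 6.17, 13.6 and 10.4 CPM in Lgr5 CR (0.85, SE 0.372, edgeR quasi-likelihood adjusted p = 0.786). Both genes overlapped, through Hopx CR replicate 1, while Ccne2 did not, at 10.5 and 13.1 CPM in Hopx CR, against 6.64, 6.01 and 4.11 CPM in Lgr5 CR (1.08, SE 0.472, edgeR quasi-likelihood adjusted p = 0.786).

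Ccne2, Cdc45 and Gins4 were the 3 of 37 that were higher in Hopx CR without overlap in CPM, against 11.7% of all genes. In CPM 0 were lower without overlap, against 11.4%. In TPM only Ccne2 of these stayed higher without overlap, and Cdc45 overlapped. Gins4 was at 25.6 and 26.7 TPM in Hopx CR, below every Lgr5 CR library (28.6, 29.0 and 30.4 TPM). Pold1, at 84.8 and 120 CPM in Hopx CR and 84.9, 128 and 93.1 CPM in Lgr5 CR, differed by 0.00 (SE 0.230). The direction of the whole group also turned with the scaling, since on log2(TPM + 1) 31 of the 37 were lower in Hopx CR, with a median of -0.16, against -0.19 over all genes. It rested on single libraries as well, since the median was -0.05 with 19 of 37 lower without Lgr5 CR replicate 1, and -0.01 with 20 lower without Hopx CR replicate 2. It was 0.29 with 3 lower without Lgr5 CR replicate 2, and 0.22 with 2 lower without Hopx CR replicate 1. All 15 tuft cell markers had a higher fitted level in Hopx CR (summed level 113 to 200 TPM, against 46.9 to 72.0 TPM in Lgr5 CR), 13 of 14 enteroendocrine genes were higher (3820 to 6922 TPM, against 629 to 3247 TPM in Lgr5 CR) and 9 of 10 goblet cell genes were higher (9266 to 10726 TPM, against 4392 to 5916 TPM in Lgr5 CR). All 12 active stem cell genes had a lower fitted level (1548 to 1962 TPM, against 4250 to 5019 TPM in Lgr5 CR). So did 4 of 5 reserve stem cell genes (median -0.43). None of these markers passed the threshold, and their part was not tested.

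**Figure D5:**
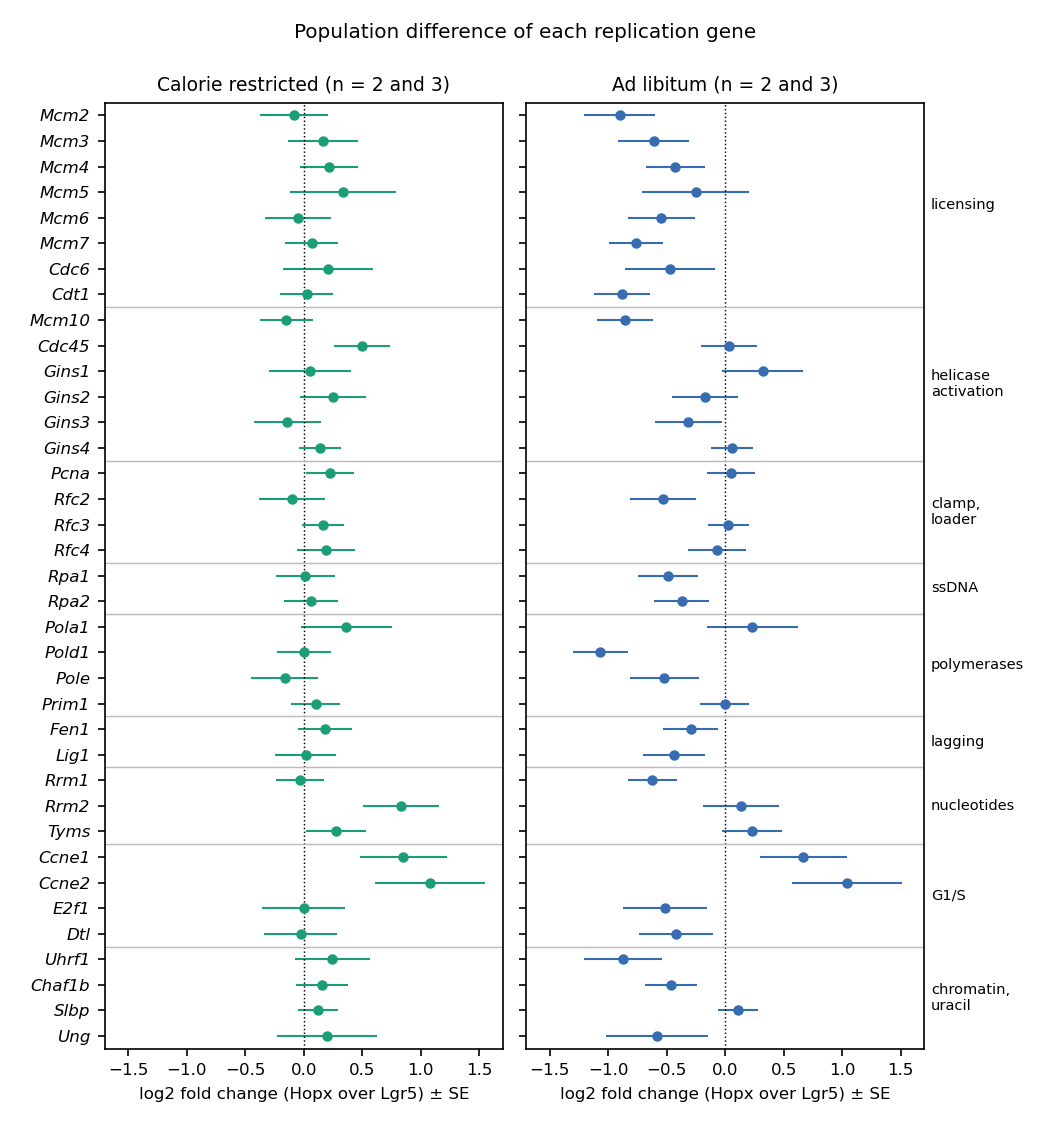
Log2 fold change of Hopx over Lgr5 cells with its standard error for each of the 37 replication genes, grouped by role, under calorie restriction (left) and ad libitum feeding (right), with 2 Hopx and 3 Lgr5 libraries per diet. Under ad libitum feeding 26 points lie below 0, including all 8 licensing factors, and under calorie restriction 28 lie above 0; Ccne2 is at 1.08 and 1.04.

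Averaged over both diets, 22 of the 37 genes had a lower fitted level in Hopx than in Lgr5 cells and 15 a higher one (49.5% and 50.5% of all tested genes), with a median of -0.15. On log2(TPM + 1) 35 were lower, with a median of -0.60, against -0.35 over all genes. None passed edgeR's quasi-likelihood test, which called 1.33% of all genes here, while DESeq2 called 3 (Mcm10, Pold1 and Ccne2), against 9.41% of its genes. At an unadjusted p under 0.05, 5 were lower and 2 higher, against 9.03% and 10.4% of all genes. The smallest p-values were those of Pold1 (-0.53, SE 0.165, adjusted p = 0.125), Ccne2 (1.06, SE 0.334, adjusted p = 0.129) and Mcm10 (-0.50, SE 0.164, adjusted p = 0.139), by edgeR's quasi-likelihood test. The CPM of the 4 Hopx and 6 Lgr5 libraries overlapped for all 37 genes, where 1.93% of all genes were lower and 2.87% higher without overlap. The count of 5 lower was 8 without Lgr5 AL replicate 1, 3 without Lgr5 CR replicate 2 or 3, and 2 without Lgr5 AL replicate 2, Hopx CR replicate 1 or Hopx AL replicate 1. The median was -0.24 without Lgr5 CR replicate 1, -0.05 without Lgr5 CR replicate 2, -0.08 without Lgr5 AL replicate 2 and -0.04 without Hopx CR replicate 1. In this comparison markers of other cells passed edgeR's threshold, with 8 of 14 enteroendocrine, 2 of 10 goblet and 1 of 12 Paneth cell genes higher in Hopx cells and 4 of 12 active stem cell genes lower. Of 5 reserve stem cell genes 4 had a lower fitted level in Hopx cells (median -0.58), and none passed. Their part in the values of the 37 was not tested. Exons of Ccne2 overlap Ints8 on the opposite strand, which averaged 14.8 TPM against 3.97 TPM for Ccne2.

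On the TPM scale the groups were shifted as a whole. The 37 genes summed to 1062 ± 177 TPM in Hopx CR, 894 ± 192 TPM in Hopx AL, 1188 ± 238 TPM in Lgr5 CR and 1938 ± 534 TPM in Lgr5 AL (SD, n = 2, 2, 3 and 3). In Hopx AL against Lgr5 AL, log2(TPM + 1) moved the median of all tested genes to -0.49 and that of the 37 to -1.08. In Hopx CR against Hopx AL it moved the median of all genes to 0.15 and that of the 37 to 0.24, which differs in sign from the fit on counts. In Lgr5 CR against Lgr5 AL these medians were -0.11 for all genes and -0.59 for the 37. Hopx AL replicate 1 had 17.8% of its counts in its 5 highest genes, with 9.39% in the Paneth cell lysozyme Lyz1, while Lgr5 AL replicate 3 had 3.06% and 0.677%. The 12 Paneth cell genes summed to 181420.7 to 241805.4 TPM in Hopx CR and 226043.2 to 332484.4 TPM in Hopx AL. They summed to 126322.5 to 162215.7 TPM in Lgr5 CR and 72379.9 to 190841.7 TPM in Lgr5 AL. Each library totalled 943114 to 972945 TPM. The part of these highly expressed genes in the shift was not tested.

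Further replication genes outside the 37 were counted from lists by role, and none passed the threshold in Lgr5 CR against Lgr5 AL. Of 19 other origin recognition and firing genes 12 had a lower fitted level, of 22 other fork and polymerase subunits 19, of 16 other genes of nucleotide supply 14, and of 12 other genes of chromatin replication 9, where 48.2% of all tested genes were lower. The medians of these lists were -0.16, -0.26, -0.31 and -0.26. Genes with the smallest p were the S phase kinase Cdk2 (-0.55), the polymerase epsilon subunit Pole2 (-0.53), the purine synthesis enzyme Atic (-0.67) and the histone chaperone Nasp (-0.72). Upstream, 9 of 15 E2F and pocket protein genes and 8 of 11 genes of G1 cyclins, kinases and phosphatases were lower, and cyclin D3, Ccnd3, differed by -0.69 (SE 0.145, edgeR quasi-likelihood adjusted p = 0.189). In Hopx CR against Hopx AL the same replication lists were split, with 9 of 19, 11 of 22, 10 of 16 and 7 of 12 lower. Over both diets, the CDK inhibitor Cdkn1c was higher in Hopx than in Lgr5 cells (1.35, SE 0.263, edgeR quasi-likelihood adjusted p = 0.0448), 1 of 6 CDK inhibitor genes to pass, where 1.33% of all genes and, as given above, 8 of 14 enteroendocrine and 4 of 12 active stem cell genes passed.

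Genes of G2 and M phase, the mitotic programme that follows replication, were counted in the same fits. In Lgr5 CR against Lgr5 AL, 22 of 30 had a higher fitted level (median 0.10), against 51.8% of all tested genes, and in Hopx CR against Hopx AL 29 of 30 did (median 0.47), against 48.6%. In Hopx AL against Lgr5 AL 22 of 30 had a lower fitted level (median -0.26), as 26 of the 37 replication genes did, and in Hopx CR against Lgr5 CR 19 of 30 had a higher one (median 0.10), as 28 of the 37 did. None of the 30 passed in these 4 comparisons. Within isolations they were higher in the CR animal for 29 of 30 in isolation 4, 23 in isolation 5, 23 in isolation 1, 1 in isolation 2 and 27 in isolation 3. Isolation 2 was thus the pair in which replication and mitotic genes were both lower in the CR animal, and the sets differed in sign of the median in isolations 1, 3 and 4. The mean log2 CPM of the 37 genes minus that of the 30 was -0.50 and 0.00 in Hopx CR, 0.74 and 0.08 in Hopx AL, -0.60, 0.37 and -0.45 in Lgr5 CR, and 0.57, 0.33 and 0.48 in Lgr5 AL. It was lower in the CR animal of isolations 1, 3, 4 and 5 and slightly higher in that of isolation 2, and no test was made of it. The proliferation marker Mki67 was at 5.12 and 8.41 TPM in Hopx CR, 0.366 and 4.25 TPM in Hopx AL, 5.69, 2.69 and 2.69 TPM in Lgr5 CR, and 0.634, 3.75 and 2.78 TPM in Lgr5 AL, overlapping between diets in the Lgr5 cells only.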

How the data were processed

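RNA of 10 libraries was extracted with TRIzol LS, amplified with SMART-Seq v4 and sequenced from Nextera XT libraries, per the labels' protocols, with no molecular identifiers or strand marking. The authors deposited estimated counts and TPM per gene symbol. The submitters' processing notes name kallisto, edgeR and GRCh38, a human build, although the symbols are mouse symbols, so no gene coordinates were taken from it. Promoter windows come from RefSeq (GRCm38.p6), and overlapping exons from the GENCODE M21 mouse annotation.

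Estimated counts were rounded. edgeR 4.0.16 (R 4.3.3) filtered genes at a minimum count of 10, scaled libraries by TMM and fitted 4 group means to all 10 libraries by quasi-likelihood, with 15839 genes tested, a biological coefficient of variation of 0.389 and Benjamini-Hochberg adjustment over all tested genes at 0.05. The standard error is the fold change divided by the square root of F. CPM are TMM-normalized, and log2 CPM used a prior count of 1. No 2 libraries held identical values. TPM columns sum to 943114 to 972945. Alternatives used DESeq2 1.42.0, DESeq2 size factors, no filter, limma 3.58.1 on log2(TPM + 1) or log2(TPM + 0.1), the groups compared alone, the isolation as a block, and each library left out. The isolation number in the labels pairs a CR with an AL animal. Deviations of paired libraries from their group means correlated across genes at 0.0738, 0.158 and 0.0118 in isolations 1 to 3 and 0.0206 in isolations 4 and 5. The scripts were tested on simulated data.

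The 37 genes and the lists were chosen with earlier results of these data known. Genes given library by library are the 3 with the smallest p per comparison, a fixed set of 12, the highest and lowest by mean TPM, and 3 of those with opposite signs in the Lgr5 and Hopx isolations. The others named in that pattern were singled out after their values were seen. Of the other lists, up to 2 genes with the smallest p were named.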

Additional observations from a re-analysis of the deposited data

Results flagged for a closer look

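A total of 9 of the 37 genes had a lower level in the CR animal of all 3 Lgr5 isolations and a higher level in that of both Hopx isolations. The difference between the diet effects (Hopx minus Lgr5, log2) was 1.07 for Pold1, 0.91 for Cdt1, 0.83 for Mcm7, 1.12 for Uhrf1, 0.71 for Mcm10, 0.59 for Rrm1, 0.62 for Chaf1b, 0.64 for Mcm4 and 0.45 for Lig1. The difference itself was tested with edgeR's quasi-likelihood test as an interaction, and the adjusted p of each of the 9 was 0.9999, with unadjusted p-values under 0.05 for Pold1, Cdt1, Mcm7 and Uhrf1. No group here had the 4 samples needed to look for single outlying samples.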

How the results depend on the processing

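Of 461 values of named genes under alternatives, 443 kept direction and side of the threshold, 17 passed it and 1 reversed, Ccne2 in Lgr5 CR against Lgr5 AL (-0.75 to 0.20 over the fits that left out 1 library, and above 0 without Lgr5 AL replicate 3). Comparisons are listed in the order Lgr5 diet, Hopx diet, difference of diet effects, Hopx AL against Lgr5 AL, Hopx CR against Lgr5 CR, and both diets. All-gene calls were 365, 140, 35, 1157, 160 and 1400 with DESeq2, and 83, 7, 3, 194, 24 and 465 without the filter. They were 19, 4, 3, 3359, 5 and 3350 on log2(TPM + 1), and 23, 4, 2, 3617, 12 and 3658 on log2(TPM + 0.1). DESeq2 size factors gave 1 call in the Lgr5 diet comparison, and fitting the compared groups alone gave 12 in Hopx CR against Lgr5 CR. With the isolation as a replicate block the first 3 comparisons had 0 calls, 2 of the 37 genes were below 0 in the difference, and no call among the 37 changed.

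DESeq2 called 1, 6 and 3 of the 37 in the Lgr5 diet, Hopx AL against Lgr5 AL and both-diet comparisons. On log2(TPM + 1) 19 were called in Hopx AL against Lgr5 AL and 12 over both diets, all lower in Hopx cells. There 3359 and 3350 of all genes were called, only 118 and 158 of them higher, and the all-gene medians were -0.49 and -0.35. On log2(TPM + 0.1) 21 and 15 of the 37 were called, where 3617 and 3658 of all genes were, 109 and 148 of them higher. Medians of the 37 on log2(TPM + 1) were -0.59, 0.24 (reversed), 0.91, -1.08, -0.16 (below 0, against 0.14) and -0.60, and on log2(TPM + 0.1) -0.61, 0.28 (reversed), 0.95, -1.14, -0.16 (below 0) and -0.68. Genes lower numbered 9 (Hopx diet), 0 (difference), 31 (Hopx CR against Lgr5 CR) and 35 (both diets) at either pseudocount. The cause was not tested.

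Leaving out single libraries gave 0 to 109, 1 to 3, 1 to 2, 0 to 110, 1 to 7 and 22 to 293 all-gene calls and 0 calls among the 37 throughout. Medians of the 37 ran from -0.59 to -0.30, -0.14 to 0.17, 0.26 to 0.64, -0.55 to -0.25, -0.05 to 0.29 and -0.24 to -0.04. Genes lower ran from 36 to 37, 15 to 27, 0 to 8, 23 to 29, 2 to 20 and 19 to 26. With 2 or 3 libraries a group, and a lone library then assumed to vary like the others, the number of libraries limits the precision of each value.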
